A study of Homo sapiens with 6 samples.

Results

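The genes described here encode enzymes that make NADPH, the reducing agent of glutathione and thioredoxin reduction and of lipid synthesis, that phosphorylate NAD to NADP, or that pass sugar phosphates through the pentose phosphate pathway. They were chosen by gene symbol for these roles, and comprise PGD, TKT, TALDO1, ME1, IDH1, IDH2, NNT, NADK and RPIA. These are 9 of the 17687 genes in the table. All 9 passed the filter on low counts, which kept 14005 genes for testing. The oxidative branch of the pentose phosphate pathway oxidizes glucose 6-phosphate and yields NADPH and ribulose 5-phosphate, and its non-oxidative branch links pentose phosphates to glycolysis. Malic enzyme and the NADP-dependent isocitrate dehydrogenases make NADPH from malate and isocitrate, and the mitochondrial transhydrogenase makes it from NADH. Selenite is reduced in cells by glutathione and thioredoxin reductase, which draw on NADPH.

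RNA-seq was performed on KHM-5M cells, a human anaplastic thyroid cancer cell line, in 3 groups of 2 libraries. The control group received PBS, the SS group sodium selenite, and the SS+NAC group sodium selenite together with N-acetylcysteine (NAC), a thiol antioxidant. The labels of the RNA samples give no dose with a unit and no time, and cells given NAC alone were not analysed here. The methods of the study describe the 2 libraries of a group as biological replicates. The p-values below set differences between groups against the spread between replicates, estimated over all libraries of a fit together. Total expected counts were 17645545 and 22016655 for control, 23493415 and 23810056 for SS, and 23682740 and 22617180 for SS+NAC. Every member had at least 473 counts in each library. Replicates differed by more than sampling noise in each group, with a chi-square per degree of freedom of 3.1 in control, 7.33 in SS and 12.2 in SS+NAC.

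The markers of the labelled cell type were partly present. PAX8, a transcription factor of thyroid follicular cells, ranged from 104 to 133.8 TPM over the 6 libraries. TPM is the deposited transcript level scaled for transcript length and library depth. TG did not exceed 0.30 TPM, NKX2-1 did not exceed 0.20 TPM, and DIO1 was at 0 in every library except SS+NAC replicate 2, with 0.06 TPM. Of the 6 thyroid markers analysed here, 1 had a mean of at least 1 TPM, PAX8, and FOXE1 ranged from 0.55 to 1.59 TPM. Both SS libraries lay below the 4 others for PAX8, at 116 and 104 TPM against 125.7 TPM or more. The epithelial keratin KRT8 was highest in SS, with 1266 and 1398 TPM against 1134 and 1189 TPM in control and 1162 and 977.4 TPM in SS+NAC. KRT18 and KRT7 were also highest in both SS libraries, EPCAM was lowest there (3.85 and 3.96 TPM against 5.04 TPM or more), and CDH1 did not exceed 0.29 TPM. Of the mesenchymal markers VIM was highest in SS, with 6504 and 6621 TPM against 5880 and 6202 TPM in control and 6032 and 5744 TPM in SS+NAC. The other 3 were lower in both SS libraries than in the other groups, FN1 (889.1 and 661.3 TPM in SS, 1131 and 1111 TPM in control, 1405 and 1810 TPM in SS+NAC), ZEB1 (8.52 and 8.39 TPM in SS, 21.5 and 18.5 TPM in control, 17.5 and 23.0 TPM in SS+NAC) and CDH2 (35.2 and 30.9 TPM in SS, 48.2 and 52.3 TPM in control, 51.6 and 53.7 TPM in SS+NAC). Of the endothelial markers 0 of 4 reached a mean of 1 TPM, and their summed level lay between 0.63 and 0.92 TPM with KDR the most abundant. Of the leukocyte markers 2 of 5 reached it, CD14 was the most abundant, and the sum lay between 3.09 and 4.97 TPM. Of the fibroblast markers 3 of 5 reached it. Their sum, mostly COL1A1, was 228.9 and 226.6 TPM in control, 188.6 and 175.2 TPM in SS and 283.7 and 266.1 TPM in SS+NAC, while COL1A2 did not exceed 0.04 TPM. These levels are not centred on the median of all genes. The part of these differences in the values of the members was not tested.

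On the scale of TPM, which allows genes to be compared, TKT had the highest level of the members in control, at 497 ± 10.2 TPM (SD, n = 2), and stood above 98.1% of the tested genes. TALDO1 followed with 328 ± 1.32 TPM and PGD with 127 ± 1.66 TPM. IDH1 (56.5 ± 1.96 TPM) and NADK (55.4 ± 1.10 TPM) came next, and their control libraries overlapped. IDH2 had 44.2 ± 0.0849 TPM, ME1 39.4 ± 4.26 TPM, NNT 34.9 ± 0.488 TPM and RPIA 27.5 ± 1.48 TPM. Apart from IDH1 and NADK, neighbours in this order did not overlap between their control libraries. TKT, TALDO1, PGD and IDH1 led in this order in the SS and SS+NAC groups as well. In SS the last member was NNT, at 21.2 ± 2.21 TPM, below RPIA at 25.1 ± 1.10 TPM. In SS+NAC, ME1 reached 56.1 ± 10.5 TPM, and it overlapped there with its neighbours IDH1 and IDH2.

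Between SS and control, PGD, TKT, TALDO1, IDH1 and IDH2 were higher in SS and NNT was lower. These differences were called at an adjusted p of at most 0.05 by edgeR's quasi-likelihood test across all tested genes. They are 6 of the 9 members, where 40.0% of the tested genes were called, 18.6% higher and 21.4% lower. The median log2 fold change of the members was 0.22, against 0.00 over all tested genes. RPIA, ME1 and NADK did not pass the test. At an unadjusted p under 0.05 there were 6 members and 48.8% of the tested genes, and DESeq2 called 5 members and 37.9% of the genes to which it gave an adjusted p. In bulk RNA, a smaller number of cells of a kind and less RNA per cell cannot be told apart.

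Between SS+NAC and control, 0 of the 9 members were called by edgeR, and 2.01% of the tested genes were, with 1.36% higher and 0.657% lower. At an unadjusted p under 0.05 there were 5 members and 16.1% of the tested genes, and DESeq2 called 1 member, ME1, and 2.30% of the genes to which it gave an adjusted p. Of all genes called, 67.4% were higher by edgeR and 56.6% by DESeq2. The median of the members was 0.10, against -0.00 over all tested genes. The largest difference was that of ME1, a log2 fold change of 0.46.

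Between SS and SS+NAC, PGD, TALDO1, RPIA and IDH1 were higher in SS, and ME1 and NNT were lower. These are again 6 of 9, where 42.7% of the tested genes were called, 19.6% higher and 23.1% lower. An unadjusted p under 0.05 was reached by 6 members and 50.1% of the tested genes, and DESeq2 called 5 members and 37.5% of genes. The median of the members was 0.11, against -0.03 over all tested genes. The comparison shares the SS libraries with that of SS and control, and the control and SS+NAC libraries each enter 2 comparisons, so the values below are given side by side.

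**Figure D1:**
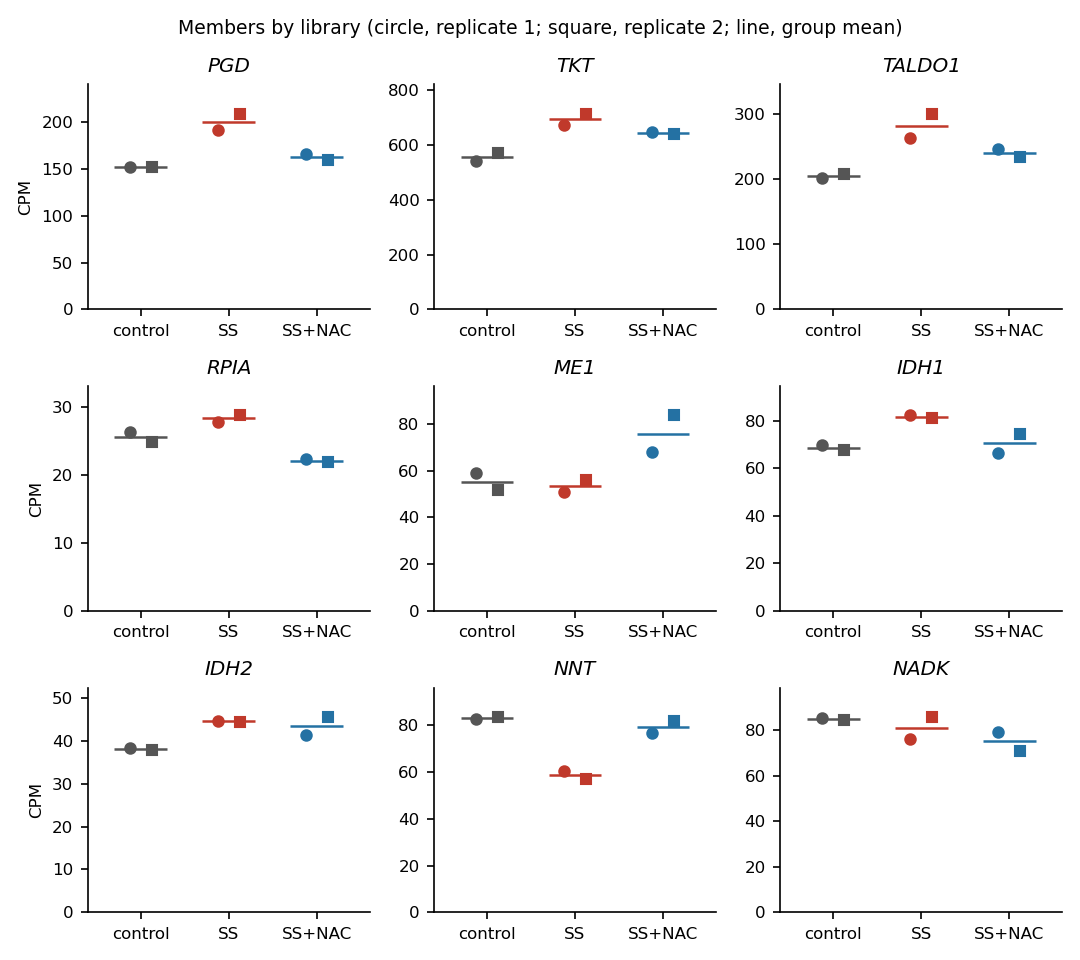
CPM (counts scaled to library size with TMM factors, vertical axes from 0) of the 9 members in each library, with a circle for replicate 1, a square for replicate 2 and a line at the group mean. NNT lies at 60.5 and 56.8 CPM in SS and at 76.5 CPM or more in the other libraries, and ME1 is highest in the SS+NAC libraries.

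**Figure D2:**
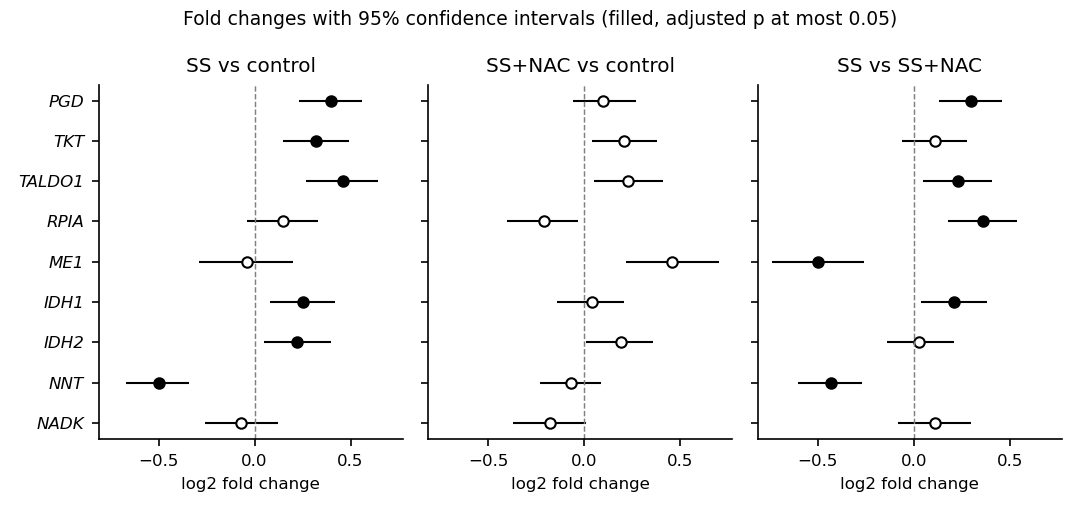
Log2 fold changes of the members in the 3 comparisons (horizontal axes) with 95% confidence intervals as bars. Filled points have an edgeR adjusted p of at most 0.05, and 6, 0 and 6 members are filled.

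The fold changes between SS and the other groups depended on transcript length across the transcriptome, and the members differ in length. The effective length, the stretch of transcript from which reads can arise, was 1231 bases for TALDO1, 1685 for IDH2, 1833 for RPIA, 2204 for TKT, 2349 for PGD, 2402 for IDH1, 2794 for ME1, 3061 for NADK and 4628 for NNT. TALDO1 fell in the shortest eighth of the tested genes, where SS over control had a median log2 fold change of 0.46, the value of TALDO1 itself. PGD, TKT and IDH1 fell in the third eighth, with a median of 0.14, and their own values of 0.40, 0.32 and 0.25 lay above it. NNT fell in the seventh eighth, with a median of -0.30, and its own value was -0.50. RPIA and IDH2 had 0.15 and 0.22 in the second eighth, where the median was 0.27. Between SS+NAC and control the medians of the eighths lay between -0.02 and 0.02.

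A fit with an offset for the trend with length in each library, termed the length offset below, called 2 members for SS over control, PGD and NNT, where it called 9.23% of the tested genes. Between SS and SS+NAC it called 1 member, ME1, with 14.4% of the tested genes called. Between SS+NAC and control it called 0 members and 2.01% of the tested genes. The median of the members with the length offset was -0.03 for SS over control, against 0.01 over all tested genes. It was -0.01 for SS over SS+NAC, against 0.01, and 0.08 for SS+NAC over control, against -0.00. A test with limma on log2(TPM + 1), centred on the median of all genes and chosen after seeing the data, called PGD, TKT, TALDO1 and NNT for SS over control, with 36.8% of genes called. Between SS and SS+NAC it called PGD, ME1, NNT and RPIA (38.1%), and between SS+NAC and control 0 members (0.878%). Without the centring, the median of all genes was -0.20 for SS over control, -0.27 for SS over SS+NAC and 0.04 for SS+NAC over control. Uncentred, limma called NNT and NADK for SS over control (39.5% of genes), TKT, ME1, NNT and NADK for SS over SS+NAC, all lower (48.4%), and 0 members for SS+NAC over control (0.721%). The share of limma's calls that were higher was then 7.76% for SS over control, against 43% with the centring and 46.4% by edgeR on counts. For SS over SS+NAC it was 6.09%, against 44.8% with the centring and 45.9% by edgeR on counts. Differences on the TPM scale below are centred unless stated. TPM values of single libraries are as deposited and not centred, so their order between groups holds the shift of all genes.

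**Figure D3:**
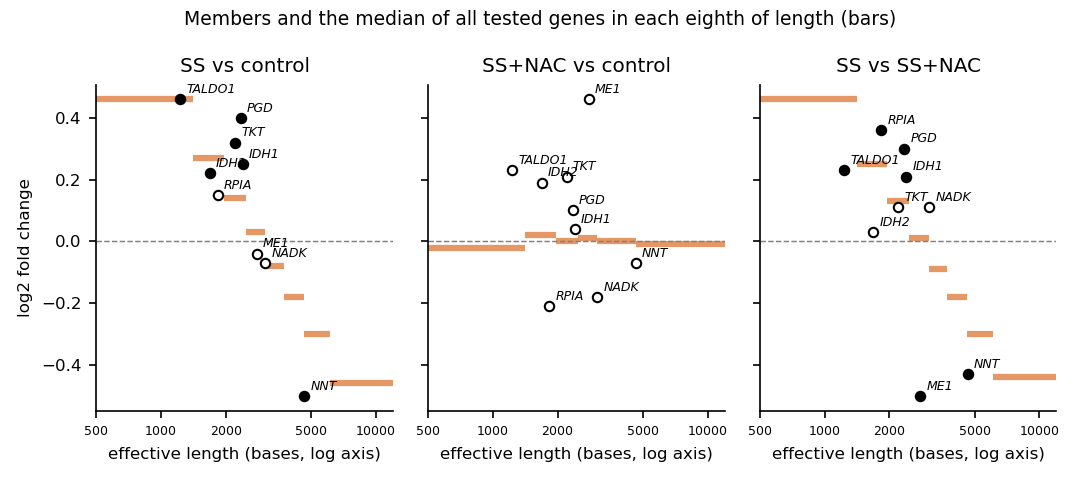
Log2 fold change (vertical axis) against effective length in bases (log axis) for the members, filled where the edgeR adjusted p was at most 0.05. Bars are the median of all tested genes in each eighth of length, and for SS over control TALDO1 lies at its bar (0.46) while NNT (-0.50) lies below its bar (-0.30).

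**Figure D4:**
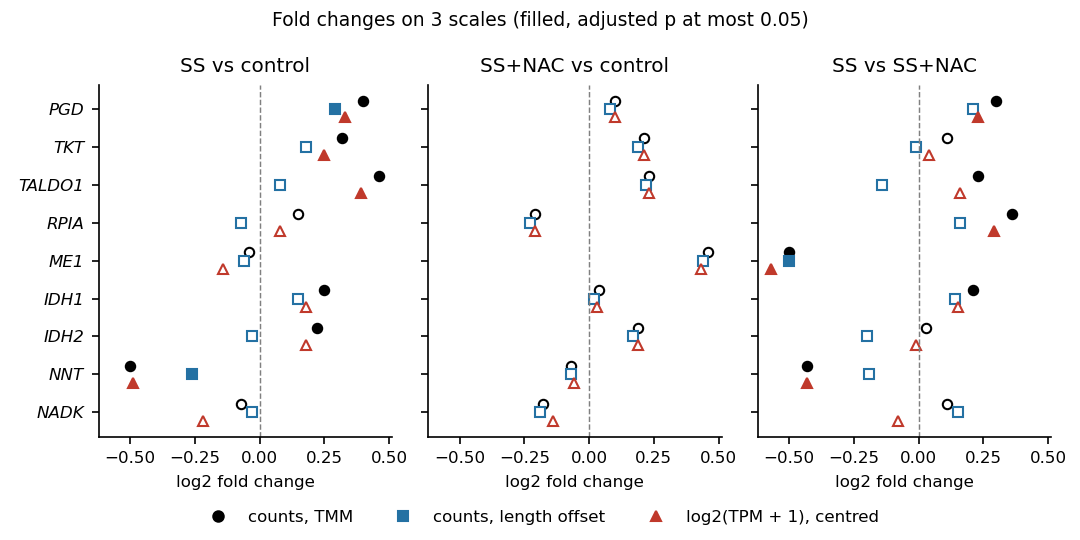
Log2 fold changes of the members (horizontal axes) from counts scaled by TMM (circles), from counts with the length offset (squares), and from log2(TPM + 1) centred on the median of all genes (triangles), filled where the adjusted p on that scale was at most 0.05. NNT is below 0 on all 3 scales in both comparisons of SS, and TALDO1 moves from 0.46 to 0.08 with the offset.

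PGD encodes 6-phosphogluconate dehydrogenase, which releases NADPH in the oxidative branch. The gene lies at chr1:10398592-10420144 on the plus strand (GRCh38, GENCODE 29), with 14 merged exons. It had 151.7 and 152.0 CPM in the control libraries, 191.3 and 208.9 CPM in SS, and 165.9 and 159.8 CPM in SS+NAC. Both SS libraries lay above the 4 others, and the SS+NAC libraries lay between SS and control without overlap. The order differs in TPM, with 128.6 and 126.2 TPM in control, 138.7 and 137.8 TPM in SS, and 140.1 and 144.2 TPM in SS+NAC, where SS+NAC was highest. SS exceeded control by a log2 fold change of 0.40 (standard error (SE) 0.07, 95% confidence interval 0.23 to 0.56, edgeR adjusted p = 0.00224), a ratio of 1.32. With the length offset it was 0.29 (edgeR adjusted p = 0.0239), and on the TPM scale 0.33 centred (limma adjusted p = 0.0153) and 0.12 uncentred, which was not called (limma adjusted p = 0.262). SS exceeded SS+NAC by 0.30 (SE 0.07, edgeR adjusted p = 0.00904), but this call was not made with the length offset (0.21, edgeR adjusted p = 0.0603) or without SS replicate 2 (0.23, edgeR adjusted p = 0.0919), and on the TPM scale it was 0.23 centred and -0.04 uncentred. SS+NAC differed from control by 0.10 (SE 0.08, edgeR adjusted p = 0.535).

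The promoters of the members were searched for TGACNNNGC, the core of the antioxidant response element that NRF2 binds, on both strands. The windows are those of RefSeq (GRCh38.p14), from 250 bases before to 50 after each start, and 13 windows matched the 9 members. A match was found for 3 of 9 members, PGD, ME1 and IDH1, and for 16.1% of all 27305 genes with a window. The stretches around the matches before the start are shown to set the matches side by side, 5′ to 3′ along the gene with the match in capitals, at chr1:10398833-10398901 for PGD on the plus strand, and at chr2:208255176-208255244 for IDH1 and chr6:83431150-83431218 for ME1 on the minus strand.
PGD: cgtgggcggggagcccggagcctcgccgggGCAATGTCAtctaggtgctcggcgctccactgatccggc
IDH1: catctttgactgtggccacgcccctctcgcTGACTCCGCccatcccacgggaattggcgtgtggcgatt
ME1: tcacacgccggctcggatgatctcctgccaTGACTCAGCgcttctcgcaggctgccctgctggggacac
The match of PGD began at position -201 relative to the start and read in the opposite direction to the gene, that of IDH1 at -143 in 1 of its 2 windows, and that of ME1 at -137. ME1 had another match at position 11, after the start. TKT, TALDO1, RPIA, IDH2, NNT and NADK had no match in their windows. The starts used here are those of RefSeq, and the stretches of PGD and IDH1 lie within the GENCODE positions given for these genes. A match is a description of letters, and binding was not measured.

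TKT and TALDO1 encode transketolase and transaldolase, which exchange carbon units between sugar phosphates in the non-oxidative branch. TKT lies at chr3:53224707-53256052 on the minus strand and TALDO1 at chr11:747329-765024 on the plus strand. TKT had 541.4 and 569.0 CPM in control, 671.5 and 712.6 CPM in SS, and 647.8 and 638.2 CPM in SS+NAC. Each treated library was above both control libraries, and the SS libraries were the highest in CPM. In TPM the SS+NAC libraries were the highest, with 489.9 and 504.3 TPM in control, 520.1 and 499.5 TPM in SS, and 581.9 and 613.9 TPM in SS+NAC, and SS overlapped control. TKT was higher in SS than in control by 0.32 (log2, SE 0.08, edgeR adjusted p = 0.00794). It was 0.18 with the length offset (edgeR adjusted p = 0.101), and the call was lost without control replicate 1 (0.28, edgeR adjusted p = 0.125) or SS replicate 2 (0.27, edgeR adjusted p = 0.0634). The differences of TKT between SS+NAC and control, 0.21 (SE 0.08, edgeR adjusted p = 0.208), and between SS and SS+NAC, 0.11 (SE 0.08, edgeR adjusted p = 0.295), did not pass the test. The latter was -0.01 with the length offset and 0.04 on centred TPM, and on uncentred TPM it was -0.23 and called lower (limma adjusted p = 0.05). The expected counts of TKT were whole in 1 of 6 libraries, with no decimals as deposited, while those of the other members were whole in 6 of 6. RSEM can divide a read among genes, and how many reads of TKT it divided was not analysed here.

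TALDO1 had 202.1 and 207.5 CPM in control, 263.0 and 299.8 CPM in SS, and 246.2 and 234.2 CPM in SS+NAC. The 3 groups did not overlap, with SS highest and control lowest in CPM. In TPM, SS+NAC was highest without overlap, with 327.1 and 328.9 TPM in control, 364.0 and 377.4 TPM in SS, and 396.6 and 403.4 TPM in SS+NAC. In SS it exceeded control by 0.46 (log2, SE 0.08, 95% confidence interval 0.27 to 0.64, edgeR adjusted p = 0.00185), the largest rise of a member. The length offset left 0.08 (edgeR adjusted p = 0.46). SS exceeded SS+NAC by 0.23 (SE 0.08, edgeR adjusted p = 0.0453), a value that became -0.14 with the length offset (edgeR adjusted p = 0.178) and -0.11 on uncentred TPM (0.16 centred). It was not called without control replicate 1 (0.23, edgeR adjusted p = 0.0994), control replicate 2 (0.25, edgeR adjusted p = 0.0613), SS replicate 2 (0.13, edgeR adjusted p = 0.342) or SS+NAC replicate 2 (0.19, edgeR adjusted p = 0.135). SS+NAC exceeded control by 0.23 (SE 0.08), which did not pass the test (edgeR adjusted p = 0.207).

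RPIA encodes ribose 5-phosphate isomerase, which converts ribulose 5-phosphate to ribose 5-phosphate, and lies at chr2:88691644-88750935 on the plus strand. It had 26.3 and 24.9 CPM in control, 27.9 and 28.8 CPM in SS, and 22.3 and 21.9 CPM in SS+NAC. The SS libraries were the highest and the SS+NAC libraries the lowest, with control between them and no overlap in CPM. In TPM the control libraries were the highest (28.6 and 26.5 TPM), and those of SS (25.9 and 24.3 TPM) and SS+NAC (24.1 and 25.3 TPM) overlapped. On centred TPM, SS exceeded SS+NAC by 0.29 (limma adjusted p = 0.021) and control by 0.08 (limma adjusted p = 0.394). Uncentred, these differences were 0.02 and -0.13. RPIA was called between SS and SS+NAC, at 0.36 (SE 0.08, edgeR adjusted p = 0.00583), and not in the other comparisons, with 0.15 for SS over control (SE 0.08, edgeR adjusted p = 0.182) and -0.21 for SS+NAC over control (SE 0.08, edgeR adjusted p = 0.253). With the offset for length, the difference between SS and SS+NAC was 0.16 (edgeR adjusted p = 0.195), and without SS replicate 2 it was 0.33 (edgeR adjusted p = 0.051).

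ME1 encodes the cytosolic malic enzyme, which oxidizes malate to pyruvate with the release of NADPH. It lies at chr6:83210389-83431071 on the minus strand. ME1 had 58.9 and 51.6 CPM in control, 51.0 and 56.0 CPM in SS, and 68.1 and 83.7 CPM in SS+NAC. The control and SS libraries overlapped, and both SS+NAC libraries lay above them. In TPM the 3 groups did not overlap, with 42.4 and 36.4 TPM in control, 30.7 and 30.4 TPM in SS, and 48.6 and 63.5 TPM in SS+NAC. SS was lower than SS+NAC by a log2 fold change of -0.50 (SE 0.11, 95% confidence interval -0.74 to -0.26, edgeR adjusted p = 0.00411). The length offset gave the same value, -0.50 (edgeR adjusted p = 0.0138), and the call was made with each library left out in turn, between -0.64 and -0.35. SS differed from control by -0.04 (SE 0.11, edgeR adjusted p = 0.785). On the TPM scale it differed from control by -0.14 centred (limma adjusted p = 0.385) and -0.35 uncentred (limma adjusted p = 0.0863), and neither was called. For SS+NAC over control the log2 fold change was 0.46 (SE 0.11, 95% confidence interval 0.22 to 0.70, edgeR adjusted p = 0.0641). That difference passed with DESeq2 (0.44, DESeq2 adjusted p = 0.0256), with at least 10 counts in every library (0.47, edgeR adjusted p = 0.0485) and without SS+NAC replicate 1 (0.60, edgeR adjusted p = 0.000526), while without SS+NAC replicate 2 it was 0.30 (edgeR adjusted p = 0.133). The SS+NAC libraries of ME1 were further apart than those of its other groups.

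IDH1 and IDH2 encode the cytosolic and mitochondrial NADP-dependent isocitrate dehydrogenases. They lie at chr2:208236227-208266074 and chr15:90083045-90102504, both on the minus strand. IDH1 had 69.7 and 67.8 CPM in control, 82.3 and 81.0 CPM in SS, and 66.5 and 74.6 CPM in SS+NAC. IDH2 had 38.4 and 38.0 CPM in control, 44.7 and 44.4 CPM in SS, and 41.3 and 45.6 CPM in SS+NAC. In CPM the SS libraries of both genes lay above control. The SS+NAC libraries of IDH1 spread around the control values, whereas those of IDH2 lay on both sides of the SS values. SS exceeded control by 0.25 for IDH1 (SE 0.08, edgeR adjusted p = 0.0273) and by 0.22 for IDH2 (SE 0.08, edgeR adjusted p = 0.0456).

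These were the calls of SS over control with the highest adjusted p. In TPM the SS libraries lay on both sides of control for IDH1, at 58.3 and 52.2 against 57.9 and 55.1 TPM, and for IDH2, at 46.5 and 40.4 against 44.3 and 44.2 TPM. The differences on the TPM scale were 0.18 and 0.18 centred and -0.03 and -0.03 uncentred. With the length offset the values were 0.15 for IDH1 (edgeR adjusted p = 0.238) and -0.03 for IDH2 (edgeR adjusted p = 0.837). Neither call was made with any 1 control or SS library left out. The log2 fold changes were then 0.24 to 0.27 for IDH1 and 0.22 to 0.24 for IDH2. With DESeq2 IDH2 had 0.23 and was not called (DESeq2 adjusted p = 0.112). IDH1 was also higher in SS than in SS+NAC, by 0.21 (SE 0.08, edgeR adjusted p = 0.0481). It was 0.14 with the length offset (edgeR adjusted p = 0.25). It passed without SS+NAC replicate 2 (0.30, edgeR adjusted p = 0.0118) and not without control replicate 1 (edgeR adjusted p = 0.1), control replicate 2 (0.0662), SS replicate 1 (0.157), SS replicate 2 (0.144) or SS+NAC replicate 1 (0.13, edgeR adjusted p = 0.228). IDH2 differed between SS and SS+NAC by 0.03 (SE 0.08, edgeR adjusted p = 0.75). Between SS+NAC and control, IDH1 differed by 0.04 (SE 0.08, edgeR adjusted p = 0.858) and IDH2 by 0.19 (SE 0.08, edgeR adjusted p = 0.28). Exons of IDH1 share 94 bases with the antisense gene IDH1-AS1, and the counting is not stated to use strand.

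NNT encodes the nicotinamide nucleotide transhydrogenase of the inner mitochondrial membrane, which uses the proton gradient to make NADPH from NADH. The gene lies at chr5:43602692-43707405 on the plus strand, with 24 merged exons. NNT had 82.7 and 83.5 CPM in control, 60.5 and 56.8 CPM in SS, and 76.5 and 81.7 CPM in SS+NAC. Both SS libraries lay below the 4 others, and the SS+NAC libraries lay just below control. Compared with control, SS had a log2 fold change of -0.50 (SE 0.07, 95% confidence interval -0.67 to -0.34, edgeR adjusted p = 0.000708), a ratio of 0.706. NNT was the 1 member called lower between these groups. With the length offset the value was -0.26 (edgeR adjusted p = 0.0426), and on the TPM scale -0.49 (limma adjusted p = 0.00562).

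Against SS+NAC, NNT in SS was lower by a log2 fold change of -0.43 (SE 0.07, edgeR adjusted p = 0.00134), and SS+NAC differed from control by -0.07 (SE 0.07, edgeR adjusted p = 0.674). With the length offset the first of these was -0.19 and was not called (edgeR adjusted p = 0.088), and on the TPM scale it was -0.43 (limma adjusted p = 0.00841). In TPM, NNT had 35.3 and 34.6 in control, 22.8 and 19.6 in SS, and 32.8 and 36.9 in SS+NAC. Leaving out each library in turn kept NNT below control in SS, between -0.55 and -0.46, and below SS+NAC, between -0.48 and -0.39, with each fit passing the test. Exons of NNT share 217 bases with the antisense gene NNT-AS1, which is 2.63% of its exonic bases.

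NADK encodes the cytosolic NAD kinase, which makes NADP from NAD. The gene lies at chr1:1751232-1780457 on the minus strand. NADK had 85.5 and 84.5 CPM in control, 76.2 and 85.9 CPM in SS, and 79.4 and 71.0 CPM in SS+NAC. The SS libraries lay on both sides of the control values, and both SS+NAC libraries lay below control. It was called in 0 of the 3 comparisons by edgeR, with -0.07 for SS over control (SE 0.09, edgeR adjusted p = 0.56), -0.18 for SS+NAC over control (SE 0.09, edgeR adjusted p = 0.34) and 0.11 for SS over SS+NAC (SE 0.09, edgeR adjusted p = 0.344).

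The TPM values of NADK gave a different order, with 56.1 and 54.6 TPM in control, 40.5 and 40.9 TPM in SS, and 53.6 and 50.9 TPM in SS+NAC. Here the SS libraries lay below the 4 others. The centred difference between SS and control was -0.22 (limma adjusted p = 0.0757). The uncentred difference of -0.43 passed limma's test (adjusted p = 0.00587), as did that of -0.35 between SS and SS+NAC (adjusted p = 0.0103), but both hold the shift of all genes, and the latter was -0.08 when centred (limma adjusted p = 0.465). The effective length that relates counts to TPM was 3032 and 3015 bases for NADK in control, 3208 and 3262 bases in SS, and 2936 and 2958 bases in SS+NAC. RSEM weights this length by the transcripts it finds, and its mean was 7.01% longer in SS than in control, where the median over genes with at least 10 CPM was 0.201%. Among the other members the change was largest for NNT, at -3.69%, and ME1, at 2.87%. Levels of single transcripts were not analysed here.

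For the 2 members with the largest fold changes between SS and control, the genes with the most similar pattern over the 6 libraries were found by the root mean square distance of centred log2 CPM among 9527 genes with at least 10 CPM. For NNT these were ZFP1 (distance 0.0137), EML4 (0.0224) and RALGAPB (0.0245), with log2 fold changes of SS over control of -0.52, -0.53 and -0.49. Their effective lengths were 3448, 5621 and 8227 bases. For TALDO1 they were ASMTL (0.0308), NOL3 (0.0333) and ATL3 (0.0345), with values of 0.45, 0.46 and 0.41 and lengths of 2094, 1514 and 7283 bases.

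Beyond the members, 79 other symbols of NADPH metabolism and of its regulation were listed by role, among them MESH1, another name of HDDC3. Of these symbols 76 were found in the table and 71 were tested. Between SS and control 25 were higher and 6 lower, which is 35.2% and 8.45% of the 71, against 18.6% and 21.4% of all tested genes. Both directions together came to 43.7%, against 40.0%. Between SS+NAC and control 12 were higher (16.9% against 1.36%) and 0 lower (0.657% of all tested genes). Of these 12, 7 were NRF2 regulators and targets outside NADPH supply, 3 redox enzymes that use NADPH and 2 other NADPH sources. Between SS and SS+NAC 23 were higher (32.4% against 19.6%) and 16 lower (22.5% against 23.1%). The length offset gave 6, 13 and 21 calls, or 8.45%, 18.3% and 29.6%, against 9.23%, 2.01% and 14.4% of all tested genes. Their median log2 fold changes were 0.14, 0.03 and 0.06, against 0.00, -0.00 and -0.03 over all tested genes. The lists were chosen with earlier results of these data known, so the shares above are a description and not a test.

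Of the 13 other pentose phosphate genes tested, 3 were higher in SS than in control, 1 was lower and 9 were not called. PGLS, the lactonase that precedes PGD in the oxidative branch, had a log2 fold change of 0.56 (SE 0.07, edgeR adjusted p = 0.000455), RBKS 0.69 and DERA 0.28. H6PD, a hexose 6-phosphate dehydrogenase of the endoplasmic reticulum, had -0.43 (edgeR adjusted p = 0.014). Against SS+NAC 5 were higher and 1 lower, among them PGLS at 0.60, PRPSAP1 at 0.29, RBKS at 0.63 and H6PD at -0.67, and between SS+NAC and control edgeR and DESeq2 both called 0 of 13 (1 at an unadjusted p under 0.05). With the offset for length none of these calls was made. Against control PGLS then had 0.13, RBKS 0.35, DERA -0.00 and H6PD 0.09, a change of sign (edgeR adjusted p = 0.251, 0.357, 0.976 and 0.658), and against SS+NAC PGLS had 0.17 and H6PD -0.17. The genes called with the offset were TIGAR against control (0.65, edgeR adjusted p = 0.00413), and TIGAR (0.58) and PGM2 (0.24) against SS+NAC.

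Of the 9 other NADPH sources tested, MTHFD2 and ALDH1L2, enzymes of mitochondrial folate metabolism, were higher in SS+NAC than in control, by 0.50 (SE 0.08, edgeR adjusted p = 0.0106) and 0.50 (SE 0.08, edgeR adjusted p = 0.00869). On centred TPM these differences were 0.50 and 0.44, and neither gene was called (limma adjusted p = 0.069 and 0.0698). Both were lower in SS than in SS+NAC, at -0.40 for MTHFD2 and -1.13 for ALDH1L2, also with the length offset (-0.52 and -0.70). ME3, a mitochondrial malic enzyme, was higher in SS than in control (0.34), and ALDH1L2 (-0.63) and H6PD were lower, but with the length offset edgeR called 0 of the 9. MTHFD1 was higher in SS than in SS+NAC (0.31). The list for the turnover of NAD and NADP holds genes that make, carry or break down these cofactors, and 12 were tested. Of these, QPRT (0.36), an enzyme of NAD synthesis, and HDDC3 (0.40), a phosphatase of NADPH, were higher in SS than in control and 0 were lower. The length offset kept QPRT (0.26, edgeR adjusted p = 0.0368) and gave -0.05 for HDDC3 (edgeR adjusted p = 0.817). Against SS+NAC 3 were higher, among them QPRT (0.38) and NAPRT (0.38), and 2 were lower, NAMPT (-0.54) and the mitochondrial NAD kinase NADK2 (-0.44), of which the offset kept QPRT, while edgeR and DESeq2 called 0 between SS+NAC and control (2 at an unadjusted p under 0.05). The 5 NAD-linked counterparts had a median of 0.46 for SS over control, and of 0.16 with the length offset. By edgeR without the offset 4 were higher, IDH3B (0.46), IDH3G (0.52), MDH1 (0.35) and MDH2 (0.50), of which the offset kept MDH2. The same 4 were higher in SS than in SS+NAC (0.54, 0.45, 0.44 and 0.46), with IDH3B and MDH2 kept by the offset, and edgeR and DESeq2 called 0 of 5 between SS+NAC and control (0 at an unadjusted p under 0.05).

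Of the 12 redox enzymes that use NADPH, 7 were higher in SS than in control and 0 were lower (2 were called with the length offset, NQO1 and BLVRB), among them BLVRB (0.81), BLVRA (0.55), NQO1 (0.53) and TXNRD2 (0.47). Between SS+NAC and control GSR (0.74), TXNRD1 (1.19) and NQO1 (0.51) were higher and 0 were lower. Against SS+NAC, TXNRD1 (-1.25) and GSR (-0.68) were lower in SS and 6 genes were higher, among them BLVRA (0.61) and CBR3 (0.56), and the length offset called TXNRD1, GSR and TXNRD2. The 9 synthesis enzymes that use NADPH included 2 higher and 3 lower genes between SS and control, among them SQLE at -0.28 and SPR at 0.30, and edgeR called 0 between SS+NAC and control (1 at an unadjusted p under 0.05, and 1 by DESeq2). Against SS+NAC 2 were lower and 1 higher, among them SQLE (-0.28) and SPR (0.50). With the offset SQLE had -0.26 and SPR -0.01 against control, and -0.25 and 0.21 against SS+NAC, and neither gene was called. From this list the offset called FASN against SS+NAC (0.53, edgeR adjusted p = 0.0178) and 0 genes against control. Of the 12 NRF2 regulators and targets outside NADPH supply, 7 were higher in SS+NAC than in control and 0 lower, led by SLC7A11 (2.13), OSGIN1 (1.90), SRXN1 (1.31) and GCLM (0.91). In SS over control 6 were higher and 1 lower (1 was called with the length offset, OSGIN1), among them OSGIN1 (0.78), TXN (0.57), PRDX1 (0.51) and SLC7A11 (-0.58). In SS over SS+NAC 2 were higher and 7 lower, with SLC7A11 at -2.71, SRXN1 at -1.24, OSGIN1 at -1.12 and GCLM at -1.04, and the 9 called with the length offset included these 4 but neither of the 2 higher genes, TXN and PRDX1. The median of this list for SS+NAC over control was 0.61, where that of the members was 0.10.

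**Figure D5:**
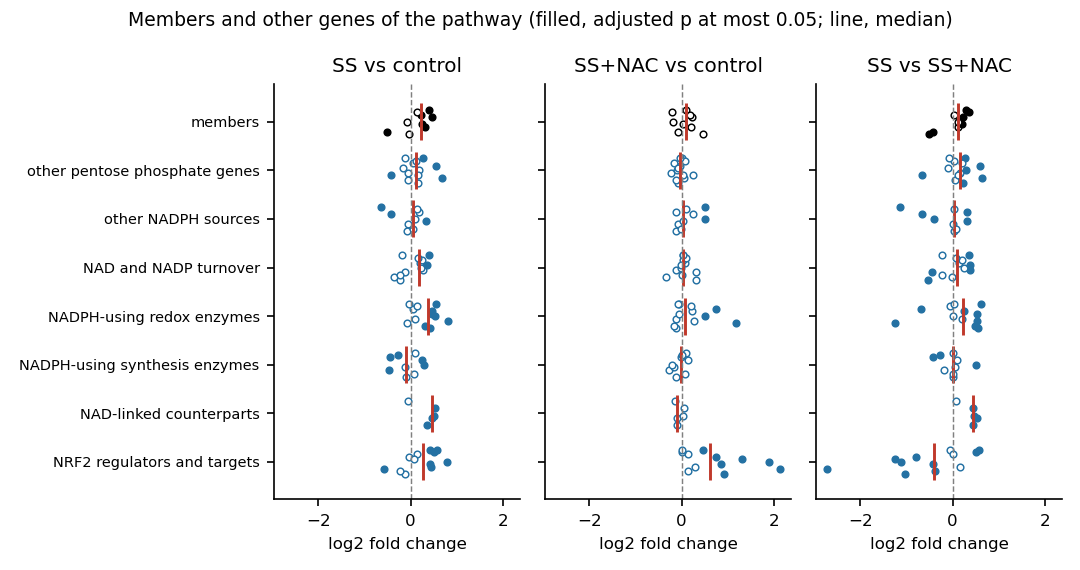
Log2 fold changes (horizontal axes) of the members and of the tested genes of each list in the 3 comparisons, filled where the edgeR adjusted p was at most 0.05, with a line at the median of each row. The members lie between -0.21 and 0.46 for SS+NAC over control, and the NRF2 regulators and targets have a median of 0.61 there.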

How the data were processed

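RNA-seq values of 6 libraries were analysed. The expected counts were made by the authors with RSEM 1.2.12 after mapping (HISAT2 2.0.4 and Bowtie2 2.2.5 in the processing notes). FPKM values, which the authors computed from these counts, length and depth, gave each gene's effective length. TPM values are those the authors deposited. The 9 columns of the authors' comparisons (log2 fold changes, p-values and q-values by DESeq2, per the column names) and 9 columns of means were not used. Reads were single-end, and the use of strand is not given in the sources used here.

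Counts were rounded, filtered with filterByExpr, scaled by TMM and fitted over all 6 libraries with the quasi-likelihood test of edgeR 4.0.16 (R 4.3.3). The Benjamini-Hochberg adjustment ran over 14005 genes. The biological coefficient of variation was 6.74%. The length offset was a lowess fit (span 0.3) of each library's deviation in log2 CPM on log length. DESeq2 1.42.0 and limma 3.58.1, on log2(TPM + 1), were alternatives, and the uses of limma were chosen after seeing the data. The centred form, which subtracted each library's median deviation from the gene means, was added once the uncentred form had shown the shift of all genes. Promoter windows were those of RefSeq. The code was tested on simulated data. Python 3.11.15, pandas 2.3.3, numpy 2.4.6 and matplotlib 3.10.9 were used.

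Named genes were all 9 members, and from each of 7 lists every called gene, or the 4 with the largest fold change where more were called. Some genes that this rule names are not reported here. Other genes named were chosen after their values were seen. The members and lists were chosen with earlier results of these data known.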

Additional observations from a re-analysis of the deposited data

How the results depend on the processing

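Of 432 values of single members under an alternative other than the Bonferroni adjustment, 346 kept direction and side of the threshold and 26 changed sign. Of those that kept direction, 56 lost a call and 4 gained one. With the length offset, edgeR called 2 members between SS and control and 1 between SS and SS+NAC (1292 and 2019 of all genes, 6 and 21 other pathway genes). The Bonferroni adjustment called 0 members in both (at an unadjusted p under 0.05, 6 in each), with 220, 40 and 191 of all genes for SS over control, SS+NAC over control and SS over SS+NAC, and 1, 7 and 7 other pathway genes. The filter of at least 10 counts and DESeq2 each called 1 member between SS+NAC and control. With each library left out in turn, a lone library being assumed to vary like the others, members called ranged from 3 to 6 for SS over control, 0 to 1 for SS+NAC over control and 2 to 5 for SS over SS+NAC, all genes from 3118 to 6579, 98 to 1086 and 3250 to 6339, and other pathway genes from 20 to 35, 7 to 16 and 25 to 38. Replicates of equal number did not deviate together, with correlations of 0.113, -0.105 and -0.175, and the labels do not pair them. With the number as a replicate block, 4 members were called for SS over control and 4 for SS over SS+NAC (4857, 211 and 5136 of all genes), and with the replicate block and the length offset 0 and 1 members, 850 and 1350 of all genes, and 4 and 19 other pathway genes. On log2(TPM + 1), chosen after seeing the data, 2 members (NNT and NADK) and 5528 of all genes were called for SS over control, 4 members (TKT, ME1, NNT and NADK, all lower) and 6780 of all genes for SS over SS+NAC, and 101 of all genes (123 when centred) and 7 other pathway genes for SS+NAC over control. For SS over control the sign changed with the length offset, with or without the replicate block, for IDH2 (-0.03) and RPIA (-0.07), on uncentred TPM for IDH1 (-0.03), IDH2 (-0.03) and RPIA (-0.13), and with libraries left out for ME1 (-0.11 to 0.05) and NADK (-0.16 to 0.01). For SS+NAC over control it changed for IDH1 (-0.05 to 0.12) with libraries left out. For SS over SS+NAC it changed with the offset, with or without the block, for TKT (-0.01), TALDO1 (-0.14) and IDH2 (-0.20), with libraries left out for IDH2 (-0.03 to 0.11), on uncentred TPM for PGD (-0.04), TKT (-0.23), TALDO1 (-0.11), IDH1 (-0.12), IDH2 (-0.28) and NADK (-0.35), and on centred TPM for IDH2 (-0.01) and NADK (-0.08). The cause was not tested.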
